A study of Mus musculus with 3 samples.

Results

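Autophagy machinery and its cargo receptors were examined in medial prefrontal cortex, a frontal region of the brain, as 44 genes chosen by name. All 44 were found by symbol among the 46073 genes of the expression table. The tissue came from C57BL/6 mice aged 3 months labelled as naïve, with no treatment and no transgene, mutant allele or agent named in the labels. The series has 3 samples, 1 each for DNA pulled down with a methylcytosine antibody, for input DNA and for RNA, and the 2 DNA samples were not analysed here. The design text states 3 replicates for the RNA, but the table holds 1 value per gene, so no level below has an error, no ratio has a replicate check and no test was possible. Levels are FPKM, fragments per kilobase of transcript per 1000000 mapped fragments, a length-scaled unit in which genes of 1 sample can be ranked.

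Macroautophagy encloses cytoplasm in a double membrane, the autophagosome, which then fuses with a lysosome. The Ulk1 kinase complex starts the process, a class III phosphatidylinositol kinase complex marks the membrane with the lipid PI3P, and Atg2 and Atg9 proteins feed lipid into it. A ubiquitin-like conjugation system then attaches Atg8 proteins (the Map1lc3 and Gabarap families) to the membrane, and receptors such as Sqstm1 link cargo to them. In the brain, basal autophagy clears protein aggregates and worn organelles from neurons, which cannot dilute them by division.

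The sample carried markers of all the cell types looked for. Neuron markers had a median of 303 FPKM (from Gad2 at 21.2 to Snap25 at 1279) and oligodendrocyte markers of 204 FPKM (from Mog at 30.8 to Mbp at 912). The median was 38.5 FPKM for astrocyte markers (Aqp4 14.6, Slc1a3 110.1), 16.9 FPKM for microglia markers (Tmem119 7.66, C1qa 39.0) and 5.85 FPKM for endothelial markers (Kdr 1.40, Vtn 27.8). All 27 markers were at 1 FPKM or more. The values are sums over these cells, so a gene with few expressing cells and a gene with little RNA per cell cannot be told apart. The sequencing depth is unknown.

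Every one of the 44 autophagy genes was at 1 FPKM or more, against 58.6% of protein-coding rows and 31.5% of all rows. The genes were chosen with earlier results of these data known, so the shares in this paragraph describe the chosen list only. Of the 44, 29 were at 10 FPKM or more, where 29.1% of protein-coding rows stood, and 4 were at 100 FPKM or more, where 2.82% stood. Their median was 16.9 FPKM. The median was 2.59 FPKM over protein-coding rows and 9.86 FPKM over the 12085 protein-coding rows at 1 FPKM or more. The middle of the autophagy genes was therefore above 80.3% of protein-coding rows and above 66.4% of those at 1 FPKM or more. They did not form a block at 1 level: 29 were above the median of protein-coding rows at 1 FPKM or more and 15 below it.

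**Figure D1:**
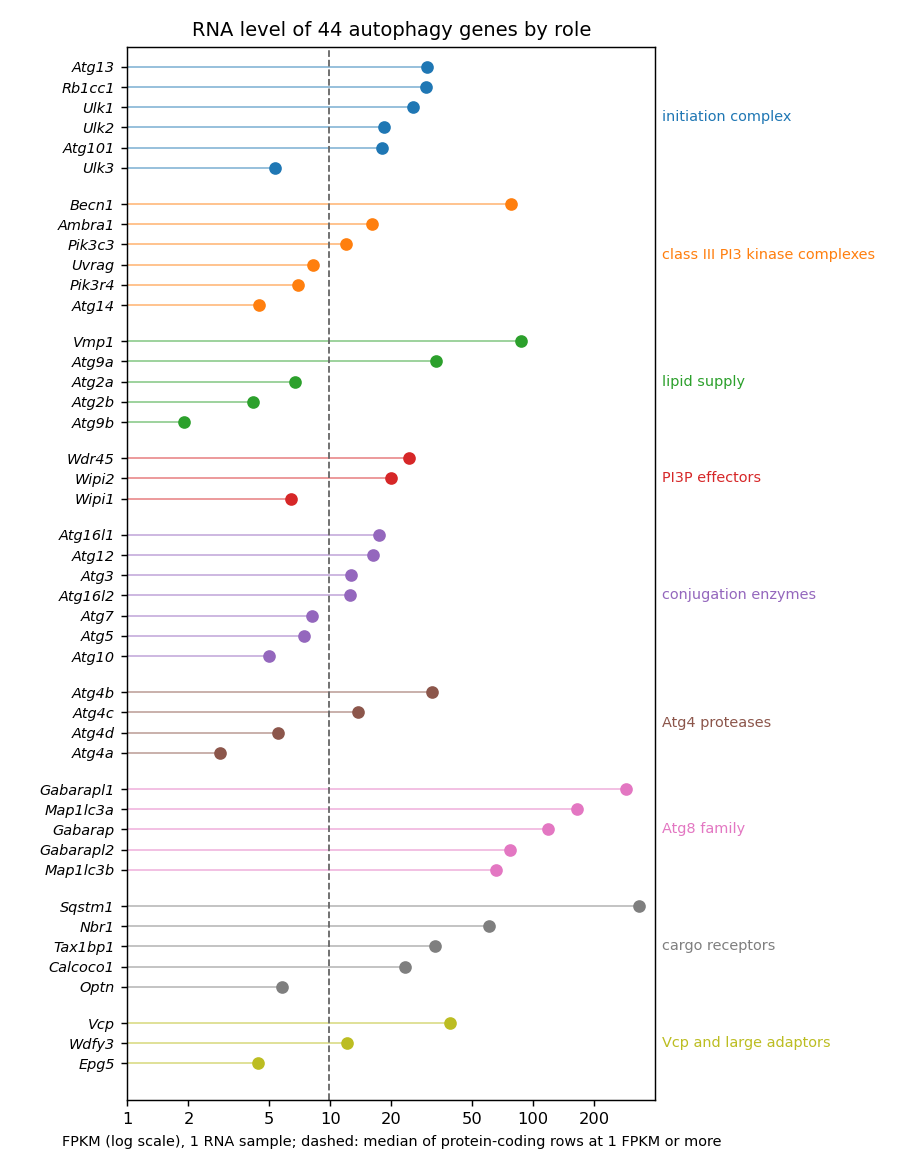
Level of each of the 44 autophagy genes in the RNA sample, in FPKM on a log axis, grouped by role. Each point is the 1 deposited value of a gene, and the dashed line marks 9.86 FPKM, the median of protein-coding rows at 1 FPKM or more. All 5 Atg8 genes lie to the right of the line, while each of the other 8 roles has genes on both sides.

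The highest and lowest genes were 176-fold apart. Sqstm1, the receptor also called p62, stood at 334 FPKM, followed by Gabarapl1 at 286, Map1lc3a at 165 and Gabarap at 118 FPKM. Atg9b at 1.89, Atg4a at 2.87, Atg2b at 4.16, Epg5 at 4.39, Atg14 at 4.44 and Atg10 at 4.98 FPKM were the 6 genes under 5 FPKM. Between these ends the order was close to continuous. Neighbouring genes in it differed by at most 1.74-fold, at the step from Gabarapl1 to Map1lc3a, and without replicates no neighbours in this order can be said to differ. The first 3 genes held 43.8% of the summed FPKM of all 44, and the first 8 held 67.5%.

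**Figure D2:**
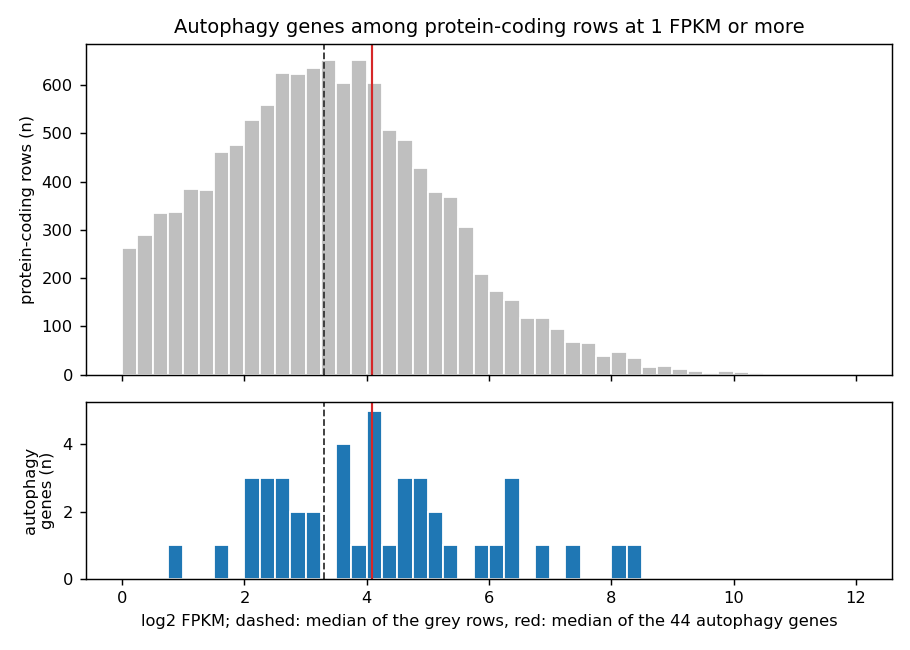
Histograms of log2 FPKM for protein-coding rows at 1 FPKM or more (grey, number of rows) and for the 44 autophagy genes (blue, number of genes). The dashed line is the median of the grey rows, 9.86 FPKM, and the red line the median of the autophagy genes, 16.9 FPKM, so that the autophagy genes sit to the right of the middle but spread over most of the range.

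The initiation complex was moderately expressed, with a median of 22.0 FPKM over 6 genes and a 5.63-fold range. Its scaffold subunits Atg13 and Rb1cc1 (FIP200) were at 30.1 and 29.8 FPKM, 1.01-fold apart. The kinase gene Ulk1 (chromosome 5, 110784489 to 110810120, GRCm38) was at 25.4 FPKM, 1.18-fold below Atg13. Its paralog Ulk2, which can stand in for Ulk1, was at 18.5 FPKM, 1.38-fold below it. Atg101, which stabilises Atg13, was at 18.0 FPKM, 1.67-fold below its partner. Ulk3, a more distant kinase of the family, was lowest at 5.34 FPKM, 4.76-fold below Ulk1 and 3.46-fold below Ulk2.

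The class III kinase complexes were led by 1 subunit, and their median was 10.1 FPKM over 6 genes. Becn1 (Beclin 1, chromosome 11, 101288258 to 101302286), the regulatory subunit shared by both complexes, was at 77.7 FPKM. The catalytic subunit Pik3c3 (Vps34) was at 11.9 FPKM, 6.52-fold below Becn1, and the scaffold kinase Pik3r4 (Vps15) at 6.91 FPKM, 1.72-fold below Pik3c3. Becn1 was thus several times above each of its partners in the table. Atg14, which directs the complex to autophagosome formation, was at 4.44 FPKM, and Uvrag, which replaces it in the endosomal complex, at 8.27 FPKM, 1.86-fold higher. Becn1 was 17.5-fold above Atg14 and 9.40-fold above Uvrag. Ambra1, a Becn1-binding regulator of the Ulk1 complex, was at 16.1 FPKM, 4.83-fold below Becn1.

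Genes that supply lipid to the growing membrane had the lowest median of the 9 roles, 6.69 FPKM, and the widest range after the cargo receptors. By a geometric mean of FPKM + 1, with the 1 then taken off, they stood at 11.8 FPKM. The conjugation enzymes stood at 10.5 and the Atg4 proteases at 9.49 FPKM by that measure. The added 1 FPKM weighs most on low genes, so these small gaps between roles carry no weight. Vmp1, a lipid scramblase of the endoplasmic reticulum, was at 87.4 FPKM, 8.07-fold above its partner Tmem41b, a gene outside the 44 at 10.8 FPKM. The Vmp1 gene (chromosome 11, 86583858 to 86683836) overlaps 4 other RefSeq genes. The 2 of them with a row in the table were low, the microRNA gene Mir21a at 6.52e-35 FPKM and the pseudogene Gm11478 at 0.106 FPKM. They share only 92 and 572 bases with Vmp1. The non-coding genes Gm46289 and Gm51914 share more, 7924 and 7003 bases, and have no value. What these overlaps add to the level of Vmp1 is therefore unknown. The lipid transfer genes Atg2a and Atg2b were at 6.69 and 4.16 FPKM, 1.61-fold apart. Atg9a, the scramblase of the vesicles that seed the autophagosome, was at 33.1 FPKM, 4.95-fold above Atg2a. Its paralog Atg9b was at 1.89 FPKM, so that Atg9a was 17.5-fold higher, the largest ratio among the 24 family pairs.

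The Atg9 paralogs also differed in the sequence before their start sites, which is shown because the series is about DNA methylation and CpG is the dinucleotide at which it mostly occurs. The 140 bases before the RefSeq start site (GRCm38.p6) are printed 5′ to 3′ on the gene's strand, with each CpG in capitals.
Atg9a, chr1:75192011-75192150, strand minus: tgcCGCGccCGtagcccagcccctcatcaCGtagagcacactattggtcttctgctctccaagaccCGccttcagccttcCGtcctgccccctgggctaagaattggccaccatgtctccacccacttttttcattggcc
Atg9b, chr5:24392144-24392283, strand minus: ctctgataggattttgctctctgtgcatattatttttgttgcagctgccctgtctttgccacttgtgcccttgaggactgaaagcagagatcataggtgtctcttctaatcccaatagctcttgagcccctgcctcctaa
The Atg9a stretch holds 6 CpGs and the Atg9b stretch 0. Over the whole 300-base window, 250 bases before and 50 after the start, the observed over expected CpG ratio was 0.70 for Atg9a and 0.10 for Atg9b. Methylation at these bases was not analysed here. The pair was picked after its values were seen, and a link between CpG content and level was not tested. In the Atg8 family, Gabarap (ratio 0.46) was at 118 and Gabarapl1 (0.75) at 286 FPKM. Gabarapl2 (0.80) was at 76.6 and Map1lc3b (0.98) at 65.7 FPKM. Map1lc3a, at 165 FPKM, had no such window. Atg9b (chromosome 5, 24384181 to 24392143) also shares 294 bases with Nos3, which was at 1.37 FPKM, and reads from the shared bases cannot be told apart.

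The PI3P effectors, which bind the marked membrane, had a median of 19.9 FPKM over 3 genes. Wdr45 (WIPI4), whose human counterpart is mutated in a neurodegeneration with brain iron accumulation, was at 24.4 FPKM. Wdr45b (WIPI3), its paralog outside the 44 genes, was at 25.5 FPKM, 1.05-fold apart from it. Wipi2, which recruits Atg16l1, was at 19.9 FPKM, 3.12-fold above Wipi1 at 6.38 FPKM.

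The conjugation enzymes formed the tightest role, from 4.98 to 17.5 FPKM, a 3.51-fold range over 7 genes with a median of 12.6 FPKM. Atg16l1, which places the conjugation complex on the membrane, was at 17.5 FPKM and Atg12, the ubiquitin-like protein of that complex, at 16.3 FPKM. Atg5, to which Atg12 is joined, was lower at 7.40 FPKM, 2.20-fold below Atg12 and 2.36-fold below Atg16l1. Atg16l2, the paralog of Atg16l1, was at 12.6 FPKM, 1.39-fold below it. Of the enzymes, the E1-like Atg7 was at 8.09 FPKM, the E2-like Atg3, which handles Atg8 proteins, at 12.6 FPKM, and the E2-like Atg10, which handles Atg12, at 4.98 FPKM. Atg3 was 2.53-fold above Atg10 and 1.56-fold above Atg7.

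The Atg3 promoter was the only 1 of the autophagy windows with the motif TCACGTGA, a form of the CACGTG box that Tfeb and Tfe3, transcription factors of lysosomal and autophagy genes, and other factors of their class can bind. The 140 bases before its start site are shown with each CACGTG in capitals.
Atg3, chr16:45158689-45158828, strand plus: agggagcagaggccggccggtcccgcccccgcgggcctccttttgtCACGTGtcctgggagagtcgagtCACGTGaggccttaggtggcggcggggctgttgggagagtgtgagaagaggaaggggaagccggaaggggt
CACGTG occurs 2 times, beginning 94 and 71 bases before the start site. Both motifs read the same on both strands, and TCACGTGA contains CACGTG. A match describes the letters and does not show that a factor binds there.

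The Atg4 proteases, which trim Atg8 proteins before conjugation and release them from membranes, were dominated by Atg4b (chromosome 1, 93754905 to 93789606). It was at 31.7 FPKM and held 58.9% of the summed FPKM of the 4 genes. Atg4c was at 13.7 FPKM, 2.30-fold lower, Atg4d at 5.50 FPKM, 5.77-fold lower, and Atg4a at 2.87 FPKM, 11.0-fold lower. Atg4a and Atg4d, the 2 low members, share 2867 and 1381 bases with Psmd10 and Kri1 on the opposite strand, which were at 7.65 and 13.7 FPKM. The library kit does not mark strand, so reads from the shared bases cannot be told apart by strand.

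The Atg8 family, the proteins that coat the autophagosome and hold cargo receptors, was the highest role, with a median of 118 FPKM and all 5 genes above at least 95.4% of protein-coding rows. Gabarapl1 (chromosome 6, 129533192 to 129542331) was at 286 FPKM and held 40.2% of the family's summed FPKM of 712. Map1lc3a (LC3A, chromosome 2, 155276364 to 155278073) was at 165 FPKM, 1.74-fold lower. Gabarap (chromosome 11, 69991370 to 69994949) was at 118, Gabarapl2 at 76.6 and Map1lc3b (LC3B), the form most often used as an autophagosome marker, at 65.7 FPKM. Map1lc3b was thus the lowest of the 5, 2.50-fold below Map1lc3a and 4.36-fold below Gabarapl1. The 3 Gabarap genes summed to 481 FPKM and the 2 Map1lc3 genes to 230.3 FPKM, a ratio of 2.09. These short genes have close relatives in the genome, and how the authors' counting divided reads between such copies is not known, so ratios within the family are uncertain. Without the 5 Atg8 genes the median of the other 39 genes was 13.7 FPKM.

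**Figure D3:**
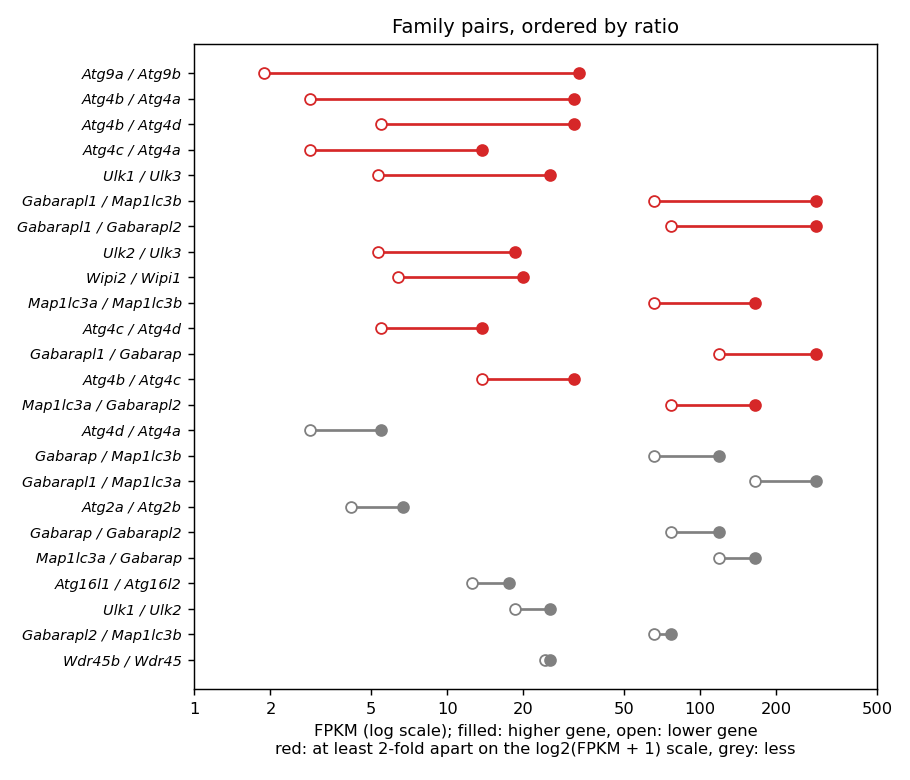
Levels of both genes of each of the 24 family pairs, in FPKM on a log axis, ordered by ratio. Filled points are the higher gene and open points the lower one, and the 14 pairs in red are at least 2-fold apart on the log2(FPKM + 1) scale while the 10 in grey are not. Atg9a over Atg9b and Atg4b over Atg4a have the longest bars, and Wdr45b and Wdr45 nearly coincide.

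Of the 24 pairs of genes from 1 family, 14 were at least 2-fold apart on the log2(FPKM + 1) scale and 10 were not. Among 15 pairs of proteins that work together in the pathway, 7 were at least 2-fold apart and 8 were not. These limits describe sizes, since pairs that share a gene repeat its value and no pair has a replicate check. The share of all protein-coding gene pairs that are as far apart was not computed. The counts are therefore no trait of these families or partners.

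Cargo receptors ran from the highest of the 44 genes to 1 of the lower ones, with a median of 32.8 FPKM over 5 genes. Sqstm1 (chromosome 11, 50200152 to 50210820), which binds ubiquitin on cargo and Atg8 on the membrane, was at 334 FPKM, above 99.5% of protein-coding rows. It held 73.2% of the summed FPKM of the 5 receptors. Nbr1, a related receptor that clusters with Sqstm1, was at 60.4 FPKM, 5.52-fold below it. Tax1bp1, a receptor drawn to clusters of ubiquitin and Sqstm1, was at 32.8 FPKM and Calcoco1, a receptor for endoplasmic reticulum, at 23.3 FPKM, 1.41-fold apart. Optn (optineurin), a receptor for damaged mitochondria, was at 5.78 FPKM, 5.68-fold below Tax1bp1 and 57.7-fold below Sqstm1.

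The remaining 3 genes act on large cargo and late steps. Vcp, the ATPase that unfolds ubiquitinated proteins, was at 38.9 FPKM. Wdfy3 (ALFY), a large adaptor for protein aggregates, was at 12.1 FPKM, and Epg5, a tether for fusion with lysosomes, at 4.39 FPKM. Vcp was 8.86-fold above Epg5. Wdfy3 overlaps the non-coding gene Gm20548 over 11601 bases, and that gene was at 7.36 FPKM.

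Other genes of the pathway, 62 in 5 lists, were at 1 FPKM or more in 61 cases and had a median of 14.7 FPKM, beside 16.9 FPKM for the 44. Mitophagy genes had the highest median of these lists, 46.4 FPKM over 11 genes. The receptor Fkbp8 was at 156, the kinase gene Pink1 at 142 and Phb2 at 69.6 FPKM, while Bcl2l13 was at 5.25 FPKM. Receptors for endoplasmic reticulum and other cargo had a median of 25.6 FPKM, with Rtn3 at 314, Retreg2 at 129 and Sec62 at 45.0 FPKM highest. The lowest of that list were Atl3 at 4.21 and the glycogen receptor Stbd1 at 0.644 FPKM, the 1 gene of the 62 under 1 FPKM. Rtn3 was the only gene of the 5 lists above Gabarapl1, and it stayed below Sqstm1.

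The fusion list had a median of 23.1 FPKM over 14 genes, with the small GTPase gene Rab7 at 136, the HOPS subunit gene Vps16 at 50.5 and Vps41 at 42.8 FPKM highest. The autophagosomal SNARE gene Stx17 was at 4.80 FPKM and the adaptor gene Plekhm1 at 3.85 FPKM. The upstream list was lowest, with a median of 7.90 FPKM over 14 genes. In it Rheb, the activator of mTORC1, was at 92.8, the kinase gene Mtor at 16.4 and Tsc2 at 14.3 FPKM, and the transcription factor genes Foxo1 and Mitf were at 2.33 and 1.13 FPKM. Tfe3 was at 10.7 FPKM, 3.21-fold above Tfeb at 3.34 FPKM. The list of other core and regulatory genes had a median of 11.7 FPKM, from Ei24 at 45.4, Trp53inp2 at 32.4 and Wdr45b at 25.5 FPKM to Trp53inp1 at 1.93 and Bcl2 at 1.64 FPKM.

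**Figure D4:**
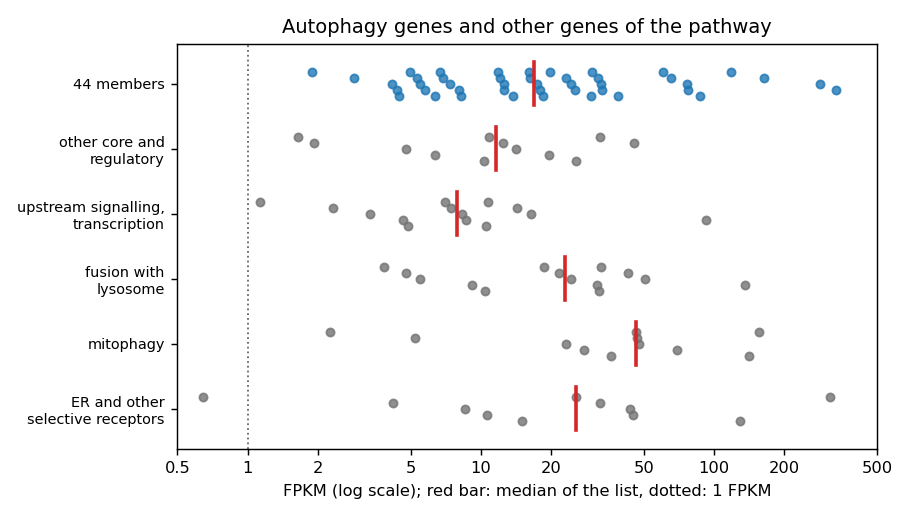
Level of the 44 autophagy genes (blue) and of 62 other genes of the pathway in 5 lists (grey), in FPKM on a log axis, with 1 point per gene and a red bar at each median. The bars run from 7.90 FPKM for upstream signalling to 46.4 FPKM for mitophagy, and 1 gene, Stbd1, lies left of the dotted line at 1 FPKM.

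RefSeq promoter windows were at hand for 36 of the 44 genes, 42 windows in all. A gene was called CpG-rich when a window had an observed over expected CpG ratio of 0.6 or more and a GC content of 50% or more. This held for 26 of the 36 (72.2%), against 48.3% of 17492 protein-coding genes. Since all 36 were expressed, the nearer comparison is with protein-coding genes at 1 FPKM or more, of which 74.4% were CpG-rich, so that the autophagy genes were near the share of expressed genes. CACGTG was present in 4 of the 36 (11.1%), Atg3, Atg5, Atg7 and Atg14, against 8.91% of protein-coding genes and 11.8% of those at 1 FPKM or more. TCACGTGA was present in 1 of 36 (2.78%), against 1.41% of protein-coding genes and 2.22% of those at 1 FPKM or more. Both shares were near those of expressed genes. Some windows belong to start sites inside the annotated gene and may not be the promoter used. The only window of Atg7 starts 28.0 kb inside, that of Wdr45 0.940 kb and that of Atg10 0.738 kb. Both windows of Atg4c start 4.78 and 4.99 kb inside, and 1 window each of Vmp1, Atg4a and Nbr1 12.7, 3.06 and 0.547 kb. Starts less far inside, such as that of Ulk3 at 0.311 kb, are not all listed.

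The 26 CpG-rich genes had a median of 18.2 FPKM and ranged from Atg2b at 4.16 to Sqstm1 at 334 FPKM. The 10 others had a median of 12.1 FPKM and ranged from Atg9b at 1.89 to Gabarapl1 at 286 FPKM, so the ranges overlapped almost fully. Of all protein-coding genes with a window and a value, 87.6% of the CpG-rich ones and 30.0% of the others were at 1 FPKM or more. Over protein-coding genes at 1 FPKM or more the medians were 11.3 FPKM for 7231 CpG-rich genes and 6.57 FPKM for 2491 others. Of the 10, Ambra1, Atg13 and Gabarapl1 missed only the limit on GC. The other 7 (Atg4a, Atg7, Atg9b, Atg14, Gabarap, Ulk3 and Wdr45) were under the CpG ratio in every window. The only windows of Atg7, Wdr45 and Ulk3 start 28.0, 0.940 and 0.311 kb inside the gene, so their ratios may not describe the promoter used. Sqstm1 and Gabarap, both among the 4 highest genes, were on opposite sides of the CpG ratio limit, with ratios of 0.67 and 0.46. They were picked after their values were seen, and a link between CpG content and level was not tested. Both genes would fall under a stricter ratio limit of 0.75. Their 140 bases before the start are given with CpGs in capitals.
Sqstm1, chr11:50210821-50210960, strand minus: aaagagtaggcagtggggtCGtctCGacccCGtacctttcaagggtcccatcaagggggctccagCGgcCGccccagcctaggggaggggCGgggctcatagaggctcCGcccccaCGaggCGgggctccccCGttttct
Gabarap, chr11:69991230-69991369, strand plus: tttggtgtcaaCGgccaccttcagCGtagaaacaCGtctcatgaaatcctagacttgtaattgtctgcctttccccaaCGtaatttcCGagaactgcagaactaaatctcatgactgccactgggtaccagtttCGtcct
The Sqstm1 stretch holds 10 CpGs and the Gabarap stretch 6.

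**Figure D5:**
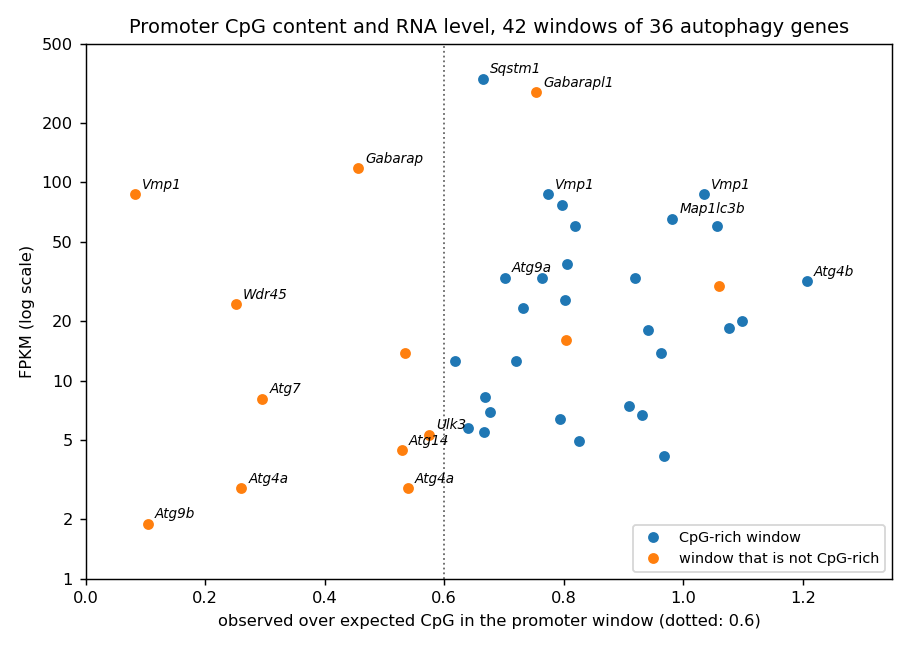
Observed over expected CpG of each of the 42 promoter windows of 36 autophagy genes (horizontal axis) against the gene's FPKM on a log axis (vertical). Genes with several windows appear several times at 1 height, blue windows are CpG-rich and orange ones are not. Atg9b and Atg4a are at the lower left, while Gabarap and Wdr45, the latter with a window inside the gene, are higher at ratios under 0.6.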

How the data were processed

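RNA of medial prefrontal cortex was examined as 1 table. The authors deposited FPKM per Ensembl gene. Per the submitters' processing notes, Cufflinks, TopHat and CASAVA 1.8.2 were used with build mm10. The sources used here do not give their other settings, the annotation or how replicates were joined, and the library kit named in the labels does not mark strand. The 2 value columns were identical in 46073 of 46073 rows and were counted as 1 value. A table of identifiers named 45139 rows, and RefSeq for GRCm38.p6, matched by symbol, listed 20635 of them as protein coding. Whole fragments could not be recovered: in 1547 short genes the most repeated product of FPKM and length was shared by 22 genes, within 0.01%, and 1 gene lay at 2 times it, so depth is unknown.

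A gene was counted as detected at 1 FPKM. Pairs were compared by the ratio of FPKM and counted as apart at 2-fold on log2(FPKM + 1), which understates low genes. No test was run. The genes, roles, lists and pairs were chosen with earlier results of these data known. The text names all 44 genes, and of each other list the 3 highest and 2 lowest (the highest and lowest for markers). A gene that this rule takes is not reported here, while counts and medians include it. Tfeb, Tfe3 and Tmem41b, and the promoter sequences other than that of Atg3, were picked after their values were seen. Protein sequences were not used here. The functions for lists, pairs and motifs were tested on simulated data. Calculations used pandas 2.3.3 and numpy 2.4.6 in Python 3.11.15, and plots matplotlib 3.10.9.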

Additional observations from a re-analysis of the deposited data

How the results depend on the processing

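Of 71 alternatives computed, 64 were within 1.5 times of the reported value. The 71 include all 39 pair ratios with 1 FPKM added to both genes, and none of these moved further. That is a weak check, since 1 FPKM changes a ratio little unless the lower gene is near 1 FPKM. Atg9a over Atg9b fell from 17.5 to 11.8. The values that moved over 1.5 times were these. At a floor of 20 FPKM, 18 of the autophagy genes passed, and scaling to 1000000 over nuclear genes put their median at 42.9 FPKM, with ranks and ratios as before. The geometric mean of the lipid supply genes, taken on FPKM + 1 with the 1 then taken off, was 11.8 FPKM. At 3-fold, 12 of the 39 pairs were apart. With TCACGTGA in place of CACGTG, 1 gene matched. Under stricter limits 17 of 36 genes (47.2%) were CpG-rich, against 32.7% of protein-coding genes and 51.8% of those at 1 FPKM or more. Under the main limits, the background share moved from 48.3% of protein-coding genes to 74.4% of those at 1 FPKM or more. Depth and replicate spread are unknown, so no ratio has an error.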

Other observations

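The 44 autophagy genes lie on 18 chromosomes. Chromosome 11 holds 7 of them (15.9%), and 7.58% of protein-coding rows lie there. These are Sqstm1, Gabarap, Vmp1, Becn1, Nbr1, Ulk2 and Wipi1, and 4 of them are among the 6 highest genes. The closest neighbours are Atg13 and Ambra1 on chromosome 2, which are 19.5 kb apart and stood at 30.1 and 16.1 FPKM. Becn1 and Nbr1, at 77.7 and 60.4 FPKM, are 249.8 kb apart on chromosome 11. Of the 44 genes, 17 overlap another RefSeq gene, 6 of them a protein-coding one, and 27 overlap none. The share of all protein-coding genes with such an overlap was not computed, so the counts do not set these genes apart.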
